A study of Mus musculus with 12 samples.

Results

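The genes described here belong to the plasminogen and coagulation system: Plau, Plaur, Serpinb2, F3, F10, F2r and Thbs1. They were taken by name, and every probe set of the array whose platform gene symbol was a member was used. This gave 12 probe sets of 7 genes, out of 45101 probe sets in all, of which 34945 carried a single gene symbol (18193 genes). One further probe set, which names Thbs1 together with another gene, was left out. Testing required a signal over 70.5, the overall median, on 3 or more of the 12 arrays. In all, 21363 probe sets of 11815 genes passed, among them 9 member probe sets of 5 genes. The 2 probe sets of Plau and the 1 of F3 did not pass, and their values are given without a test.

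The samples were cells of mice that carry Stat5a and Stat5b in blood cells (control) or lack both there (knockout), either untreated or treated. The labels state the treatment as with or without "GMP", and the series is titled as a study of GM-CSF. "GMP" may stand for an agent or for the cells (granulocyte-macrophage progenitors), so only the word treatment is used. Array titles that carry GMP belong to untreated and treated arrays alike, so in the titles it does not set the treatment apart. Each of the 4 groups (control untreated, control treated, knockout untreated, knockout treated) holds 3 arrays, and each of 3 array dates holds 1 array of every group. The promoter or Cre that removed the genes, the ages of the mice and the number of mice in a sample are not given in the labels. The labels do not say whether the samples are separate animals; p-values therefore reflect how far these samples scatter, and some of that scatter may be technical. In RNA from a bulk of cells, fewer cells of a type and less RNA per cell cannot be told apart.

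The plasminogen system dissolves fibrin and loosens the matrix around cells. The protease urokinase, encoded by Plau, cuts plasminogen into active plasmin; the receptor encoded by Plaur holds urokinase on the surface of myeloid cells, and the serpin encoded by Serpinb2 (PAI-2) inhibits urokinase and is a well-known product of activated macrophages. The clotting cascade starts when tissue factor (F3) meets factor VII and activates factor X (F10), which in turn generates thrombin. Thrombin signals to cells through the receptor PAR1, encoded by F2r, which it opens by cutting. Thrombospondin 1 (Thbs1) is an adhesive matrix protein stored in platelets and also made by monocytes.

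Sequences upstream of the members that rose together are shown because these genes share a direction of change in both genotypes (values below). RefSeq's promoter table (GRCm38.p6) held windows for 5 of the 7 members, 6 windows in all with 2 starts for Serpinb2, and Plau and Thbs1 had no entry. The 250 bases before each listed start were searched on both strands for 4 motifs bound by factors active in myeloid cells: AP-1 (TGANTCA), NF-kB (GGANTTTCC), STAT (TTCNNNGAA) and EGR1 (GCGNGGGCG). For Plaur and Serpinb2 the annotated gene begins before these starts. In the lines that follow each sequence runs 5′ to 3′ on the strand of the gene, and capitals mark a motif match.
Plaur, chr7:24462233-24462482, plus strand: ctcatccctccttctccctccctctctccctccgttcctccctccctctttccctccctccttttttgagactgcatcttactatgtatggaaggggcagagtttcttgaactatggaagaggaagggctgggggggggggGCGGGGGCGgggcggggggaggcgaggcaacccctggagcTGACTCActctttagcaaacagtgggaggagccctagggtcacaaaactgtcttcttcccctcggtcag
Serpinb2, first start, chr1:107511173-107511422, plus strand: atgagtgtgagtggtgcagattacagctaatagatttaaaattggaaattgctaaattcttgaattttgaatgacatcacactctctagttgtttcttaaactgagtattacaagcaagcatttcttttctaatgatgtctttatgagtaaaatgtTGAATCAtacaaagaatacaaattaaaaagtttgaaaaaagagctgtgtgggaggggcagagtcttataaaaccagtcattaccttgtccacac
F10, chr8:13037058-13037307, plus strand: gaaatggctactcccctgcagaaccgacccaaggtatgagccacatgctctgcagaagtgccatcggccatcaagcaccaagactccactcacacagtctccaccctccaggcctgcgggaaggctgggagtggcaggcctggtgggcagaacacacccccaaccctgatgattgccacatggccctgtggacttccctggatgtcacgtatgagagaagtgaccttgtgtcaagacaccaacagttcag
F2r, chr13:95618467-95618716, minus strand: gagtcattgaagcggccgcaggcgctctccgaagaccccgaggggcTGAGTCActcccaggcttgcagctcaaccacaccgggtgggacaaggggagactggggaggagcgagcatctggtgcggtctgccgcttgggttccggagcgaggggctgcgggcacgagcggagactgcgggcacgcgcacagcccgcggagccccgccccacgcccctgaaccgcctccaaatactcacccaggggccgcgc

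Counted from the listed start, with -1 as the base before it, the Plaur window held an EGR1 match at -109 to -101 and an AP-1 match at -69 to -63. Serpinb2 had an AP-1 match at -94 to -88 of its first start; from its second start the same site lies at -181 to -175, and a STAT match lies at -77 to -69. F2r had an AP-1 match at -204 to -198, and the F10 window matched none of the 4 motifs. Upstream of F3 (chr3:121723287-121723536) there were AP-1 matches at -146 to -140 and -135 to -129 and an NF-kB match at -112 to -104. No match overlapped another. Of all 32851 windows of the same length, 6.75% held the AP-1 motif, 1.07% the NF-kB motif, 7.02% the STAT motif and 4.7% the EGR1 motif. GC content was 59.6% for Plaur, 32.4% and 38.4% for the 2 Serpinb2 windows, 70% for F3, 57.6% for F10 and 70.8% for F2r. These are matches of letters in a window and not measured binding.

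**Figure D1:**
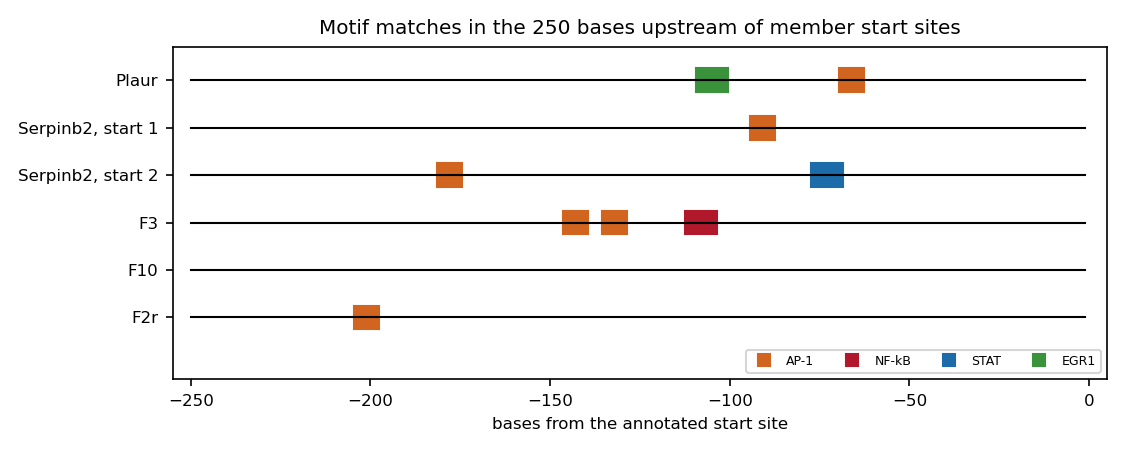
Positions of motif matches in the 250 bases upstream of each listed start of 5 members, with the distance from the start in bases on the horizontal axis and 1 line per window. Colored blocks mark AP-1, NF-kB, STAT and EGR1 matches; AP-1 matches appear in the Plaur, Serpinb2, F3 and F2r windows and no match in that of F10.

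Before the member values, 2 facts of the arrays bear on them. The ratio of 3′ to 5′ signal, which is high where labelled transcripts are truncated, reached 20.8 to 266 (Actb) and 28.2 to 80.7 (Gapdh) on date 2, against 1.14 to 2.05 and 1.56 to 3.90 on the other dates. The median rank correlation of an array with the others was 0.819 to 0.869 on date 2 and 0.920 to 0.928 otherwise. On that date the knockout treated array also differs from the other 3 in a number tag of its title, whose meaning is not given. Stat5a signal lay between 375 and 1147 on control arrays and between 26.7 and 100.6 on knockout arrays, and Stat5b signal between 287 and 1531 against 1.80 to 60.5, so the 2 genotypes did not overlap.

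Treatment was followed by higher signals of Plaur, Serpinb2, F10 and F2r in cells of either genotype, while neither probe set of Thbs1 passed the test. The F10 set 1449305_at did not pass in control cells. All changes are on the scale of log2 of the signal plus 13, which understates changes of dim probe sets, with limma's standard error (SE) from a fit of all 12 arrays blocked by array date, and Benjamini-Hochberg adjusted p-values over the 21363 probe sets. In control cells 6 of the 9 tested member probe sets rose and 0 fell at an adjusted p under 0.05, where 3.16% of all tested probe sets rose. In knockout cells 7 of 9 rose and 0 fell, where 5.77% of all rose. The median change of the 9 was 1.66 in control and 1.82 in knockout cells, beside medians of -0.01 and 0.01 over all probe sets tested. All treated arrays lay above all untreated arrays for 5 of the 9 in control cells, which held for 8.36% of all probe sets, and for 6 in knockout cells, which held for 11% of all. Of the 9, 5 reached the filter of 3 arrays only with treated arrays counted: Serpinb2 with 0 untreated arrays above it, F10 1418992_at, F2r 1450852_s_at and Thbs1 1450377_at with 2 each, and Thbs1 1460302_at with 1. Such sets enter more readily where treatment is followed by a rise, so the counts and medians over the 9 are a description of the sets that passed and support nothing, and they do not cover the 7 genes. The other 4 sets, of Plaur, F10 and F2r, exceeded the filter on all 6 untreated arrays, and 3 of them rose in control and 4 in knockout cells. The share of rises among all probe sets that pass in this way was not computed. The members were also chosen with earlier results of these data known, so this count too is only a description. The summed signals of some marker lists of other cell types also differed by treatment on every date, as given with those lists. Few single marker genes passed the test. Without the date block 0 of these sets passed in either genotype; without date 1, 0 passed in control and 2 in knockout cells, and without date 3, 0 in either.

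**Figure D2:**
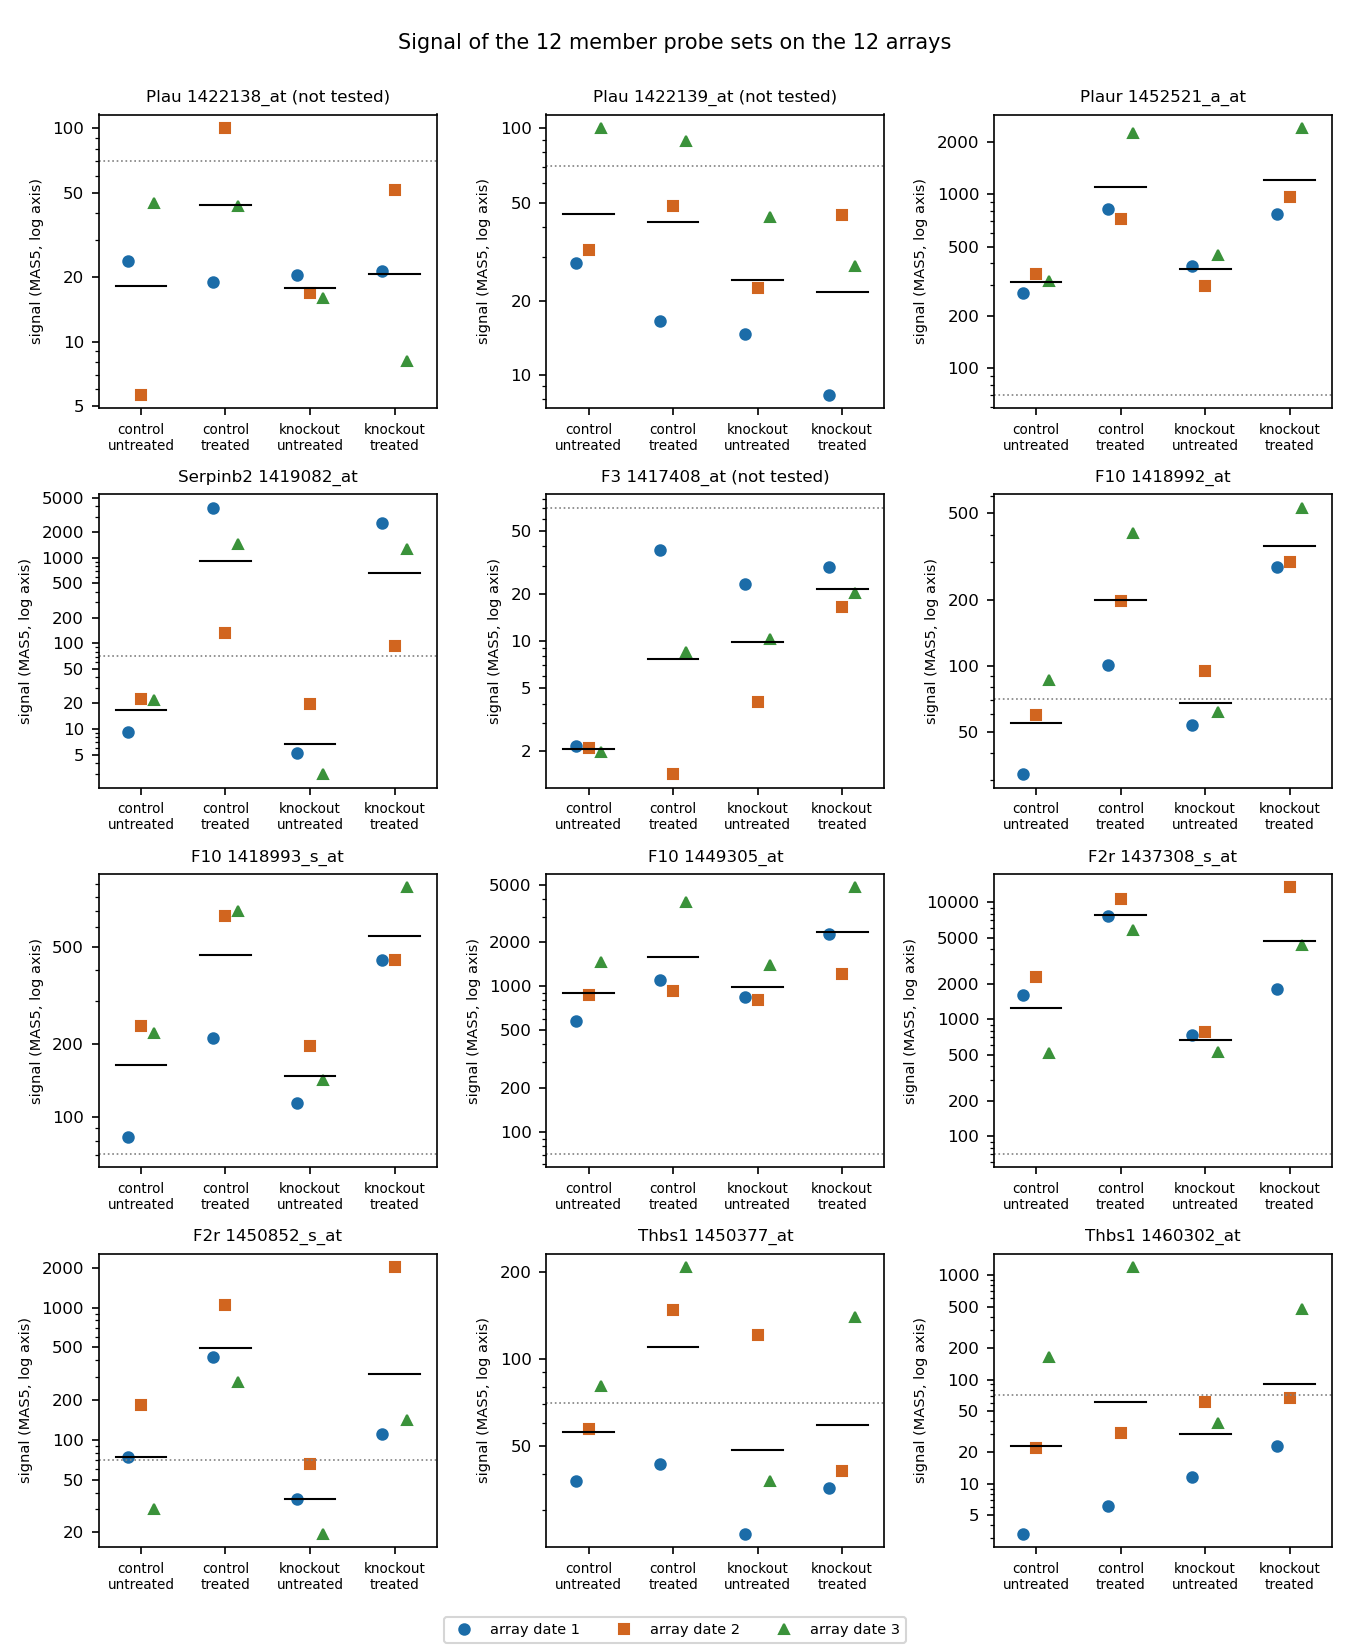
Signal of each of the 12 member probe sets (MAS5 signal, log axis, 1 panel each) on the 12 arrays, by group. Points are single arrays with the array date as color and shape, black bars are geometric means of 3 arrays, and the dotted line is the filter at 70.5; treated arrays of Serpinb2 lie between 92.2 and 3838, and all its untreated arrays at or below 22.2.

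Of the plasminogen genes, the receptor gene Plaur was measured on every array above the filter. Its signal (probe set 1452521_a_at) was 271, 349 and 318 on dates 1, 2 and 3 in control untreated cells and 823, 723 and 2245 in control treated cells. In knockout cells it was 388, 295 and 447 untreated and 765, 961 and 2405 treated. The treated arrays of date 3 were the highest in both genotypes, and no treated array overlapped an untreated one. The rise was 1.78 ± 0.35 in control cells (SE, n = 3 arrays a group, limma, adjusted p = 0.0211), a 3.44-fold change, and 1.67 ± 0.35 in knockout cells (adjusted p = 0.0191), a 3.18-fold change. In the order of group means, control untreated and knockout untreated were neighbours, as were control treated and knockout treated, and within each pair the arrays overlapped. The call was lost in control cells when any one control array of date 1 or 3 was left out (adjusted p of at most 0.104). In knockout cells it was lost without any one knockout array of date 2 or 3 (at most 0.0972).

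Serpinb2, the inhibitor, had the largest change of the members. Its signal (1419082_at) was 9.36, 22.2 and 22.0 on the 3 control untreated arrays and 3838, 134 and 1442 on the treated ones. In knockout cells it was 5.30, 19.5 and 2.97 untreated and 2557, 92.2 and 1254 treated. Untreated cells of both genotypes were thus below the filter on all 6 arrays and treated cells above it on all 6. The rise was 4.96 ± 1.04 in control cells (limma adjusted p = 0.0268) and 5.05 ± 1.04 in knockout cells (adjusted p = 0.0174). As folds of signal plus 13 these are 31.0 and 33.1, and since the untreated signals lie near or below the added value, the size depends on it. With 1 added in place of 13 the rise was 5.68 in control (51.3-fold, limma adjusted p = 0.0493) and 6.39 in knockout cells (83.6-fold, adjusted p = 0.0228). With 50 added it was 3.92 (15.1-fold, adjusted p = 0.0156) and 3.74 (13.3-fold, adjusted p = 0.0135). The date 2 arrays gave the smallest rise in both genotypes: 7.43, 2.06 and 5.38 on dates 1, 2 and 3 in control and 7.13, 1.70 and 6.31 in knockout cells. Date 2 also has the high 3′ to 5′ ratios given above, and their part in this gap was not tested. Without that date the rise was 6.40 in control (adjusted p = 0.00118) and 6.72 in knockout cells (adjusted p = 0.00131). Without any one control array of date 1 or 3 the call in control cells was lost (adjusted p of at most 0.113), and without any one knockout array of those dates the call in knockout cells was lost (at most 0.0858).

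Plau, the gene of the protease that Plaur binds and Serpinb2 inhibits, stayed mostly below the filter. The signal of 1422138_at was 24.0, 5.63 and 44.8 in control untreated, 18.9, 100.5 and 43.2 in control treated, 20.6, 16.9 and 16.0 in knockout untreated and 21.4, 51.2 and 8.06 in knockout treated cells. For 1422139_at it was 28.5, 32.3 and 100.6, then 16.6, 48.6 and 88.9, then 14.7, 22.5 and 43.8, then 8.33, 44.5 and 27.6 in the same order. One set exceeded the filter on 1 array and the other on 2, and all groups overlapped between treated and untreated cells. In a fit with no filter neither set passed in any comparison; the changes were 0.79 ± 0.55 and -0.07 ± 0.34 in control and 0.22 ± 0.55 and -0.06 ± 0.34 in knockout cells (limma adjusted p of 0.571, 0.959, 0.898 and 0.965).

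Tissue factor, encoded by F3, stayed below the filter throughout. Its signal (1417408_at) was 2.14, 2.10 and 1.97 in control untreated, 37.9, 1.42 and 8.51 in control treated, 23.0, 4.11 and 10.3 in knockout untreated and 29.6, 16.4 and 20.2 in knockout treated cells. None of the 12 arrays exceeded the filter and 5 exceeded 13, the value added before taking logs. The 3 knockout untreated arrays lay above the 3 control untreated arrays, at levels where MAS5 values are unstable. With no filter the genotype difference in untreated cells was 0.69 ± 0.33 (limma, unadjusted p = 0.0596, adjusted p = 0.999968), the change with treatment 0.73 ± 0.33 in control cells (adjusted p = 0.334) and 0.51 ± 0.33 in knockout cells (adjusted p = 0.483).

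Factor X, the clotting protease that tissue factor and factor VII activate, is mainly a liver product that macrophages can also make. Its 3 probe sets had the same direction of change. The signal of 1418992_at was 31.9, 59.6 and 86.5 in control untreated, 100.6, 199 and 407 in control treated, 53.4, 94.8 and 61.4 in knockout untreated and 285, 298 and 532 in knockout treated cells. No treated array overlapped an untreated one of its genotype. For this set F10 rose by 1.66 ± 0.33 in control cells (limma adjusted p = 0.0217), a 3.15-fold change, and by 2.19 ± 0.33 in knockout cells (adjusted p = 0.00450), a 4.56-fold change. The rise in knockout cells kept its call in all 12 fits that left out 1 array (adjusted p of at most 0.0268). In control cells it was lost without any one control untreated array or control treated replicate 3 (at most 0.103).

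The second F10 set, 1418993_s_at, whose suffix marks probes that match several transcripts, read 82.8, 237 and 222 in control untreated and 211, 669 and 699.8 in control treated cells. In knockout cells it read 114, 196 and 142 untreated and 439, 439 and 876 treated. The date 1 control treated array lay below 2 control untreated arrays of other dates, whereas the knockout groups did not overlap. The changes were 1.42 ± 0.34 in control (limma adjusted p = 0.0448) and 1.82 ± 0.34 in knockout cells (adjusted p = 0.0119). The control call was lost in 9 of the 12 fits without 1 array (at most 0.168), being kept without knockout treated replicate 1 or 2 or knockout untreated replicate 3, and the knockout call without replicate 3 of either knockout group (at most 0.0649).

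The third F10 set, 1449305_at, read 582, 865 and 1473 in control untreated, 1114, 932 and 3792 in control treated, 838, 809 and 1405 in knockout untreated and 2298, 1208 and 4791 in knockout treated cells. Both pairs of groups overlapped, and on each date the treated array was above the untreated one. F10 changed here by 0.79 ± 0.33 in control cells, which did not pass (limma adjusted p = 0.199), and by 1.26 ± 0.33 in knockout cells (adjusted p = 0.0408). That call was lost in 8 of the 12 fits without 1 array, those without any array of date 1, knockout untreated replicate 2, or any date 3 array other than control treated (adjusted p of at most 0.172). All 3 sets had a larger change in knockout than in control cells, by 0.53, 0.40 and 0.46, with 95% intervals of -0.50 to 1.57, -0.68 to 1.47 and -0.56 to 1.49, so none of these differences passed.

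F2r, the thrombin receptor gene, exceeded the filter on every array through 1 of its 2 probe sets and rose in both genotypes. The signal of 1437308_s_at was 1626, 2297 and 518 in control untreated and 7583, 10722 and 5836 in control treated cells. In knockout cells it was 732, 785 and 528 untreated and 1808, 13467 and 4290 treated. Every treated array lay above every untreated one of its genotype, and the knockout treated array of date 2 was the highest of all 12. The rise was 2.63 ± 0.52 in control (limma adjusted p = 0.0204), a 6.19-fold change, and 2.79 ± 0.52 in knockout cells (adjusted p = 0.0113), a 6.90-fold change. It was lost in control cells on leaving out the date 1 or 3 array of the treated or the date 2 or 3 array of the untreated control group (at most 0.102), and in knockout cells without replicate 2 of either knockout group or knockout treated replicate 3 (at most 0.0546).

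The second F2r set, 1450852_s_at, read 74.1, 183 and 30.2 in control untreated, 420.0, 1053 and 272 in control treated, 35.8, 65.8 and 19.6 in knockout untreated and 110.5, 2029 and 142 in knockout treated cells. Again the groups did not overlap by treatment. Its changes were 2.49 ± 0.53 in control (limma adjusted p = 0.0280) and 2.76 ± 0.53 in knockout cells (adjusted p = 0.0127). The control call was lost without any one control array other than control treated replicate 2 (at most 0.116), and the knockout call without knockout untreated replicate 2 (0.0559). Both sets carry the suffix for probes that match several transcripts.

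The size of the F2r rise in knockout cells rested in part on date 2. For the first set it was 1.29, 4.08 and 2.99 on dates 1, 2 and 3, against 2.21, 2.22 and 3.46 in control cells. Without date 2 it was 2.14 (limma adjusted p = 0.0637), and for the second set 1.79 (adjusted p = 0.0222). The summed signal of 8 megakaryocyte and platelet markers was 5280 on that knockout treated array, and 1166 to 3189 on the other 11 arrays. Of these markers Pf4 alone reached 3900, so 1 gene gave most of the 5280. Date 2 also has the high 3′ to 5′ ratios given above. The part of the marker sum or of these ratios in the F2r value was not tested.

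Neither of the 2 probe sets of Thbs1 passed the test in any comparison. The signal of 1450377_at was 37.8, 57.1 and 80.6 in control untreated, 43.4, 147 and 208 in control treated, 24.8, 121 and 37.8 in knockout untreated and 35.8, 41.0 and 139.7 in knockout treated cells. For 1460302_at it was 3.33, 21.8 and 165 in control untreated, 6.14, 30.5 and 1200 in control treated, 11.7, 61.1 and 38.4 in knockout untreated and 23.2, 66.9 and 479 in knockout treated cells. The 3 values of the second set above the filter are all from date 3, and treated and untreated arrays overlapped for both sets. The changes were 0.86 ± 0.45 and 1.11 ± 0.79 in control cells (limma adjusted p of 0.318 and 0.469). In knockout cells they were 0.22 ± 0.45 and 1.31 ± 0.79 (adjusted p of 0.817 and 0.340). With 95% intervals of -0.15 to 1.87 and -0.64 to 2.85 in control cells, a rise as large as that of Plaur lies within them.

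**Figure D3:**
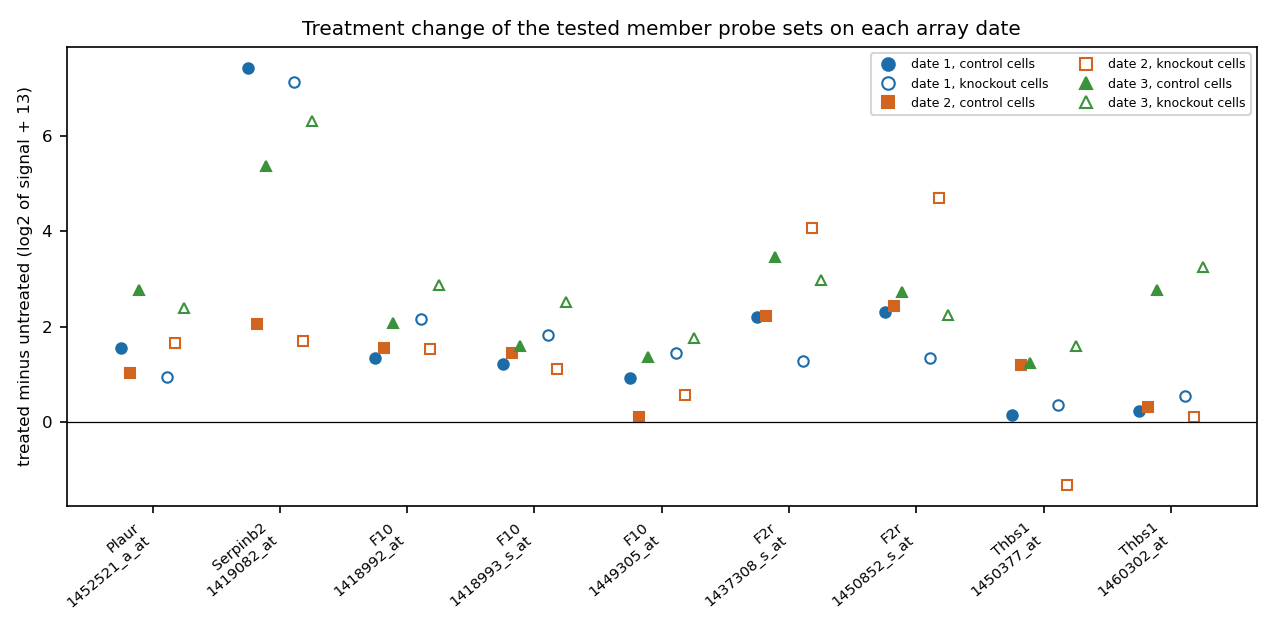
Treated minus untreated for the 9 tested member probe sets on each of 3 array dates, in log2 of signal plus 13. Filled symbols are control and open symbols knockout cells, each point 1 pair of arrays; the date 2 change of Serpinb2 is 2.06 in control and 1.70 in knockout cells, far below the other dates, and that of F2r 1437308_s_at in knockout cells is 4.08, above them.

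Treated minus untreated was above 0 on all 3 dates for the 9 probe sets in control cells, which held for 24.1% of all tested probe sets, and for 8 of 9 in knockout cells, which held for 25.7% of all. The exception was Thbs1 1450377_at on date 2, where the knockout untreated array read 121 and the treated one 41.0.

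The responses of the genotypes were then set against each other, which asks whether the response of the members differs with STAT5. None of the 9 probe sets passed the test of the difference (knockout minus control response, limma, adjusted p of 0.99996 for each), and 0 had an unadjusted p under 0.05. Over all probe sets tested, 0% passed by adjusted p and 549 had an unadjusted p under 0.05. The differences ran from -0.65 for Thbs1 1450377_at to 0.53 for F10 1418992_at. For Plaur the difference was -0.11 with a 95% interval of -1.22 to 0.996, and for Serpinb2 it was 0.09 with an interval of -3.18 to 3.36. The F2r sets gave 0.16 (-1.47 to 1.78) and 0.27 (-1.39 to 1.93), and the Thbs1 sets -0.65 (-2.08 to 0.78) and 0.20 (-2.27 to 2.67). Without date 2 both F2r differences turned negative, at -0.70 and -0.73, and neither passed. Every one of the 9 intervals reaches a difference of 2-fold (1 on the log2 scale) in at least 1 direction, so the data do not show that the responses were alike.

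Levels were also compared between genotypes under each condition. In untreated cells 0 of 9 member probe sets differed, where 0.00936% of all tested probe sets (2) did and 520 had an unadjusted p under 0.05. Both F2r sets read lower in knockout cells, by -0.88 (95% interval -2.03 to 0.27) and -0.85 (-2.03 to 0.32), and the other 7 sets lay between -0.51 and 0.25. In treated cells 0 of 9 differed, where 0.0609% of all (13) did. The knockout treated cells read higher for F10 1418992_at by 0.77 ± 0.33 (limma, unadjusted p = 0.0410, adjusted p = 0.584), the only member with an unadjusted p under 0.05 there, where 1807 probe sets had one. For F10 1449305_at the difference was 0.58 (-0.14 to 1.30) and for 1418993_s_at 0.25 (-0.52 to 1.01). F2r differed by -0.72 (-1.87 to 0.42) and -0.58 (-1.76 to 0.59) in treated cells, and the knockout and control arrays overlapped for all 9 sets.

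**Figure D4:**
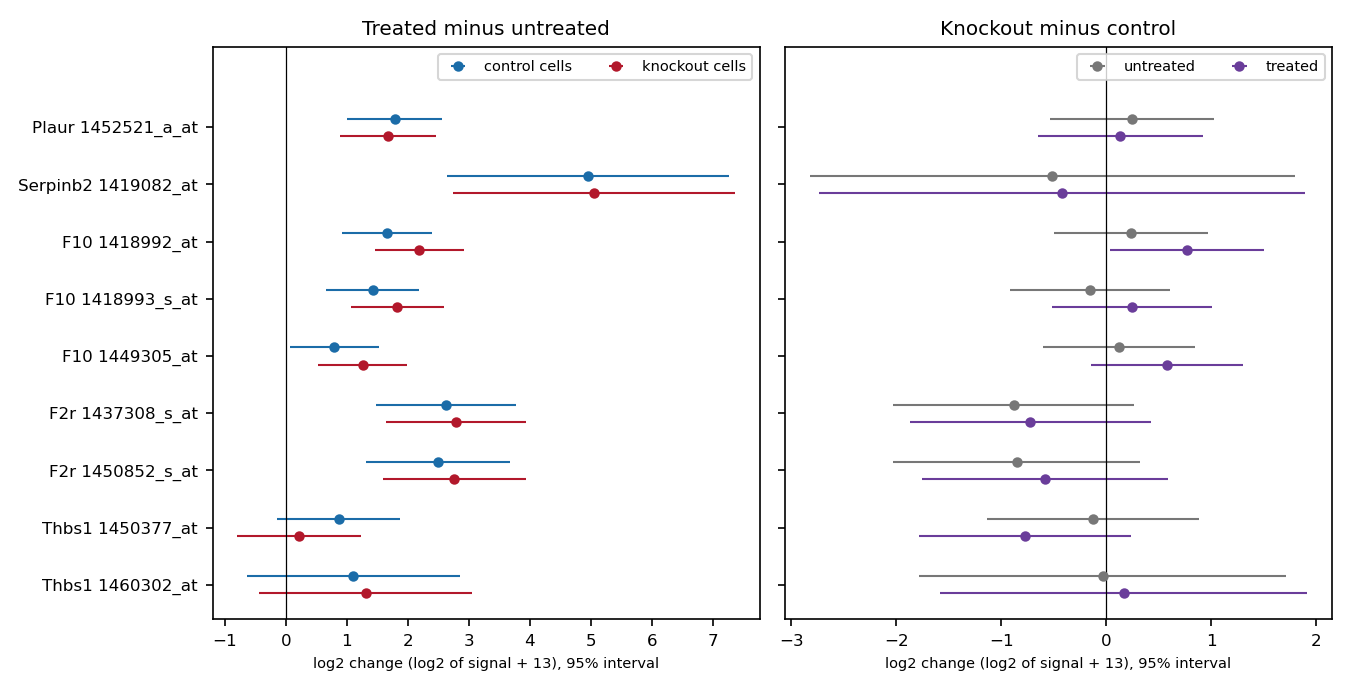
Log2 changes of the 9 tested member probe sets with 95% intervals (log2 of signal plus 13): treated minus untreated in control and knockout cells on the left, knockout minus control in untreated and treated cells on the right. On the left the intervals of Plaur, Serpinb2, F10 and F2r lie above 0 in both genotypes before adjustment. That of F10 1449305_at in control cells, 0.07 to 1.52, belongs to a change that did not pass (limma adjusted p = 0.199). On the right all intervals include 0 except that of F10 1418992_at in treated cells, 0.04 to 1.51, before adjustment.

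The rest of the system was read from 5 lists of related genes, 46 in all, of which 42 had a probe set and 20 were tested through 32 probe sets. In control cells 0 rose and 1 fell, where 4.7% of all tested probe sets changed in either direction. In knockout cells 3 rose and 1 fell, where 8.66% of all changed. The median change of the 32 was 0.22 in control and 0.32 in knockout cells. In the other 3 comparisons no related probe set passed.

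F13a1, the gene of the subunit of factor XIII that cross-links fibrin and is abundant in monocytes, fell in both genotypes. Its signal (1448929_at) was 8078, 7355 and 9934 in control untreated and 3309, 3319 and 3022 in control treated cells, and 8696, 10107 and 9808 untreated against 3966, 2322 and 4137 treated in knockout cells. The arrays did not overlap by treatment in either genotype. It fell by 1.38 ± 0.25 in control (limma adjusted p = 0.0149) and by 1.496 ± 0.25 in knockout cells (adjusted p = 0.00754). The control call was lost without any one control array other than control treated replicate 2 (at most 0.0880), and the knockout call was kept in all 12 such fits (at most 0.0355).

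In fibrinolysis 5 of 11 listed genes were tested through 9 probe sets, and only 1 set, of the scavenger receptor gene Lrp1, passed, in knockout cells. Lrp1 takes up complexes of urokinase with its inhibitors. Its set 1442849_at read 40.6, 58.6 and 46.3 untreated and 324, 438 and 499 treated in knockout cells, a rise of 2.81 ± 0.34 (limma adjusted p = 0.00165, at most 0.0139 in the 12 fits without 1 array). In control cells it read 36.6, 148 and 76.1 untreated and 86.4, 353 and 309 treated, a change of 1.35 ± 0.34 (adjusted p = 0.0540). The difference of these responses was 1.46 ± 0.49 (unadjusted p = 0.0130, adjusted p = 0.99996). The other Lrp1 set, 1448655_at, did not pass (0.24 ± 0.52 in control and 0.51 ± 0.52 in knockout cells).

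Among anticoagulants 5 of 10 genes were tested and Procr, the endothelial protein C receptor gene, passed in knockout cells. Its signal was 56.7, 23.3 and 63.0 untreated and 171, 778 and 341 treated there, a rise of 2.69 ± 0.56 (limma adjusted p = 0.0177), lost without knockout treated replicate 2 or 3 (at most 0.0780). In control cells it was 96.4, 116.6 and 60.7 untreated and 119, 633 and 244 treated, a change of 1.46 ± 0.56 (adjusted p = 0.167), and the treated arrays of date 2 were the highest in both genotypes. The difference of the responses was 1.23 ± 0.79 (limma, unadjusted p = 0.1495), which did not pass. The 4 sets of Tfpi, the inhibitor of tissue factor, and Thbd, the thrombin-binding cofactor of protein C activation, did not pass: the Tfpi changes ran from -1.06 to -0.49 in control and from -1.11 to -0.41 in knockout cells, and those of Thbd were -0.66 and -0.32. Of the thrombin receptor genes, F2rl2 rose in knockout cells from 42.6, 168 and 71.4 to 123, 337 and 171, by 1.12 ± 0.27 (adjusted p = 0.0329). That call was lost in 7 of the 12 fits without 1 array (at most 0.142). In control cells the F2rl2 value was 0.58 ± 0.27 (adjusted p = 0.267), and the difference of responses, 0.55 ± 0.39, did not pass. None of the 5 Cd47 sets, the only tested thrombospondin receptor, passed.

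**Figure D5:**
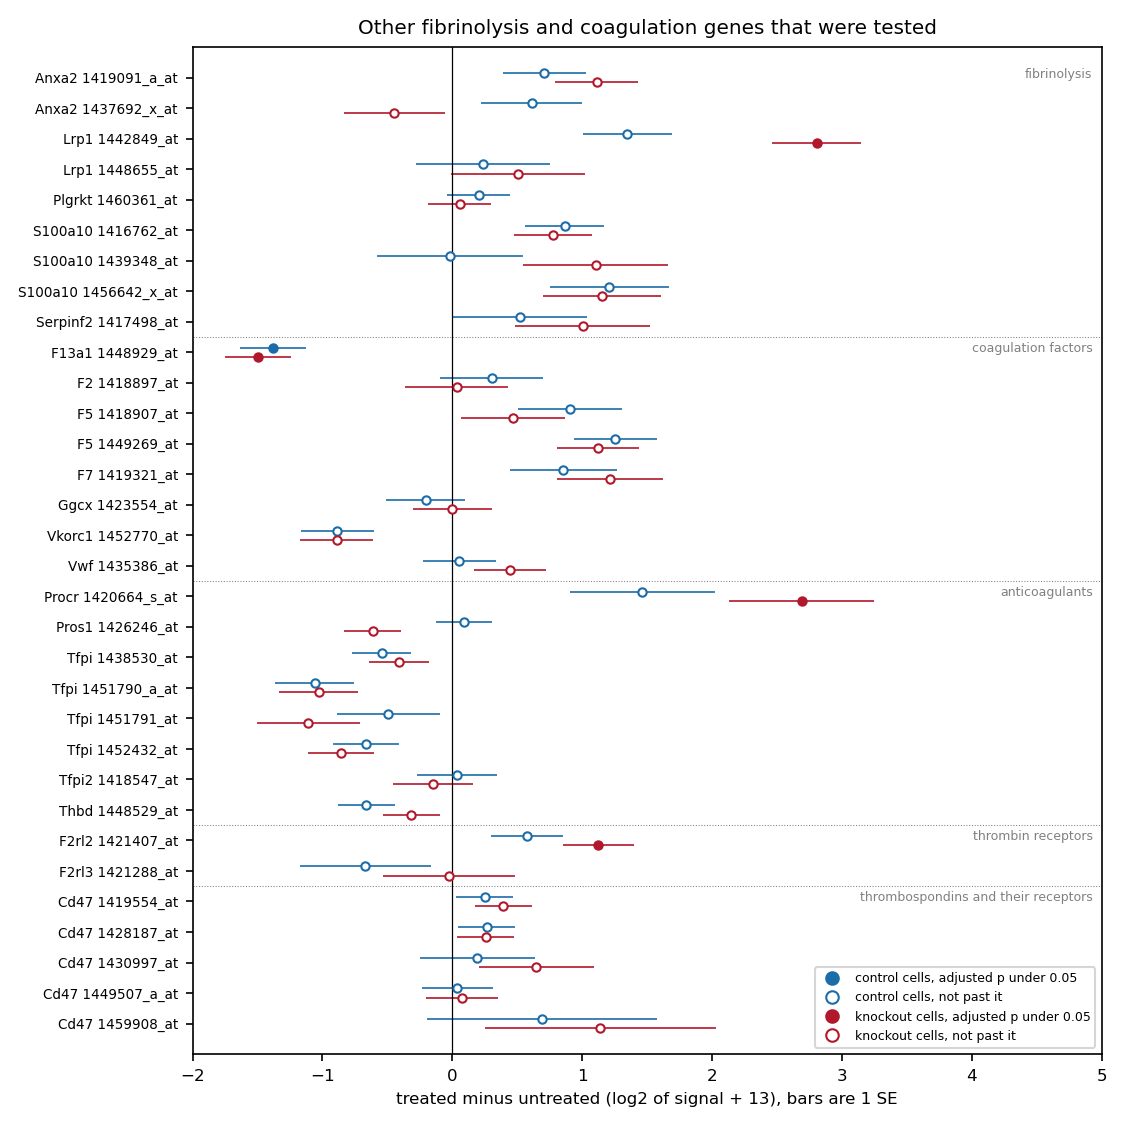
Treated minus untreated (log2 of signal plus 13, bars are 1 SE) of the 32 tested probe sets of related genes, grouped by list, in control and knockout cells. Filled points have an adjusted p under 0.05: F13a1 at -1.38 and -1.496 in control and knockout cells, and Lrp1 1442849_at, Procr and F2rl2 at 2.81, 2.69 and 1.12 in knockout cells.

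For each tested member, the genes with the most similar pattern were taken from 11814 others by the Pearson correlation over the 12 arrays after each date's mean was subtracted, a description in which treatment gives much of the spread. Plaur was closest to Rnd3 (r = 0.980), Rab22a (0.979) and Cd200r4 (0.977). Serpinb2 was closest to Pmaip1 (0.980), Maf (0.977) and Map3k8 (0.974). F10, through the set with the highest mean signal, was closest to Sat1 (0.974), Ankrd22 (0.970) and Ndc80 (0.963), and F2r to Yipf6 (0.985), Ptger4 (0.984) and Jmjd1c (0.975). For Thbs1 the values were lower, with Odf2l at 0.946, Rab15 at 0.928 and Jph1 at 0.921. Among the members themselves r was 0.853 for Plaur with Serpinb2, 0.872 for Plaur with F10, 0.876 for Plaur with F2r and 0.601 for F10 with F2r, and 0.403 to 0.551 for Thbs1 with the other 4. The change with treatment enters each of these values, and Thbs1 was read through 1450377_at, its set with the higher mean signal.

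Marker lists were read beside the members because several are also genes of macrophages, platelets or vessel walls. All 10 granulocyte-macrophage progenitor markers exceeded the filter, with summed signals of 76785 to 230202 over the 12 arrays; 1 of them, the cytokine receptor gene Csf2rb, rose in both genotypes (1.66 and 1.51, limma adjusted p of 0.0117 and 0.0120). Of 8 measured monocyte and macrophage markers 6 exceeded it. Their sum on dates 1, 2 and 3 went from 10186, 28912 and 13170 untreated to 12855, 43895 and 15532 treated in control cells, and from 10657, 25339 and 14685 to 13483, 32895 and 17019 in knockout cells. The treated sum was thus the higher one on every date in both genotypes. Csf1r read 6440 to 40377 over the 12 arrays and no other marker of the list above 2902, so the sum mostly follows that gene. The changes in control and knockout cells were 0.56 and 0.45 for Csf1r, 0.58 and -0.74 for Adgre1 and -0.35 and 0.34 for Cd68. For Itgam they were 0.04 and 1.08, for Ccr2 -0.37 and -0.55 and for Fcgr1 1.13 and 0.31, and none of these sets passed. C1qa and C1qb, which mark mature macrophages, stayed below the filter. Of this list only a second set of Ccr2 passed the test, in knockout cells. The direction of that second set is not given here, and the Ccr2 set with the higher mean signal, given above, did not pass.

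The sum of the 10 endothelial and stromal markers was also higher in treated cells on every date. It went from 1168, 1869 and 925 to 2150, 2134 and 961 in control cells and from 883, 1230 and 710 to 2272, 1990 and 1027 in knockout cells. Of these markers 1 rose (Pdgfrb in knockout cells, by 1.70, limma adjusted p = 0.0178), and Cdh5, Col1a1, Col3a1, Lum and Dcn did not pass the filter. Pdgfrb read 145 to 1797 over the 12 arrays, no other marker of this list read above 389, and its change in control cells was 0.98. In control and knockout cells Pecam1 changed by -0.42 and -0.68 and Kdr by -0.05 and -0.15. Tek changed by -0.17 and -0.28 and Col1a2 by -0.13 and 0.05, and none of these passed. The sum of the mast cell and basophil markers, of which 7 of 8 were measured and 4 exceeded the filter, was lower in treated cells on every date. It went from 8698, 8003 and 8462 to 8528, 3052 and 4056 in control cells and from 9308, 6613 and 10054 to 8498, 2630 and 5245 in knockout cells. None of that list passed the test; Cpa3, a mast cell protease gene, had changes of -1.28 and -1.23 (limma adjusted p of 0.0644 and 0.0550). The 8 measured megakaryocyte and platelet markers gave sums of 1764 to 3189 in control untreated, 1542 to 2790 in control treated, 1226 to 2214 in knockout untreated and 1166 to 5280 in knockout treated cells, higher after treatment on 1 of 3 dates in either genotype, and none passed the test. Of 4 measured B lineage markers 2 exceeded the filter, with sums of 499 to 747, 317 to 390, 613 to 1049 and 333 to 684 in the same order of groups, and of 4 erythroid markers 2 did, with sums of 136 to 343 over the 12 arrays; none of either list passed the test. None of the 4 measured T and NK cell markers passed the filter. No marker was listed at 0, and the part of any of these cells in the member values was not tested.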

How the data were processed

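The authors deposited 1 intensity per probe set and array on a linear scale, with MAS5 as the tool named per the submitters' processing notes; version and scaling target are not given in the sources used here. Each array's deposited intensity mean after trimming 2% at either end was 500.003 to 500.004, so a broad rise lowers other values. Gene symbols came from the platform annotation; 932 with several symbols, 9160 with none and 64 control sets were left out. Log2(intensity + 13) values, where 13 is the 20th percentile of all values, were fitted with limma 3.58.1 in R 4.3.3 for 4 groups with array date as a block (6 residual degrees of freedom), with 5 comparisons, Benjamini-Hochberg adjustment over all 21363 probe sets and a threshold of 0.05. The steps were tested on simulated data. Dates come from the titles. Deviations from group means correlated at 0.367 to 0.750 in the 18 pairs of arrays of a date. In 36 pairs of different dates they correlated at -0.680 to 0.435. Such deviations cancel out within each group, which lowers the values of different dates by construction. The lower range there is therefore no separate support for the pairing by date. The number of arrays limits the precision.

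The members, gene lists and marker lists were chosen with earlier results of these data known. Named were all member probe sets, related genes past the threshold, and for each member the 3 genes with the highest correlation. In all 24 alternatives were run: no block, only the groups compared, other pseudocounts and filters, quantile normalization, 1 probe set a gene, a variance trend, and leaving out a date or an array. Figures used matplotlib 3.10.9. The promoter windows are RefSeq's.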

Additional observations from a re-analysis of the deposited data

How the results depend on the processing

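The counts of member probe sets that rose depended on the array dates. Without the replicate block by date, 0 rose in control and 0 in knockout cells (adjusted p of 0.0520 to 0.450 for the 13 called values), beside 6 and 7. With only the groups compared, 2 and 3 rose. With 1 probe set a gene, fewer member sets entered, and 3 and 4 rose, so all 7 calls of those sets were kept. F10 was then read through 1449305_at, which had not passed in control cells in the main fit (limma adjusted p = 0.199). The F10 rise in control cells was thus not called in this setting. Without date 1, 0 and 2 rose; without date 3, 0 and 0 rose. Leaving out 1 array gave 0 to 6 in control and 2 to 7 in knockout cells. In the other 3 comparisons the count was 0 under every alternative run. Of the 13 called values, 13 kept their call with a pseudocount of 50, a filter on 6 arrays or an intensity trend, 11 with a pseudocount of 1 or without date 2, and 10 with no filter or quantile normalization. The cause of the lost calls was not tested. Over all probe sets, calls in control cells numbered 1004, and 172 without the block, 215 with only the groups compared, 548 with no filter, 93 without date 1 and 36 without date 3. In knockout cells they numbered 1849, and 343, 949, 1045, 238 and 107 under these. Leaving out 1 array gave 264 to 1219 in control and 572 to 2550 in knockout cells. For knockout against control, calls in treated cells numbered 13, and 0 to 28 over the alternatives, those in untreated cells 2, and 0 to 2, and those of the difference of responses 0, and 0 to 2. Quantile normalization moved the rises from 676 of 1004 to 611 of 1017 calls in control cells and from 1232 of 1849 to 1002 of 1730 in knockout cells. Of 1050 recomputed values 63 changed sign, 22 under the other alternatives and 41 with 1 array left out, and none of the 63 was called in either fit. Dim probe sets limit the readings of Plau, F3 and Thbs1.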
